A study of Oryctolagus cuniculus with 6 samples.

Results

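Amino acid transporters were examined in primary limbal stem cells (LSCs), the epithelial cells that grew out of rabbit limbal explants. They were taken as every gene of the solute carrier families SLC1, SLC3, SLC6, SLC7, SLC36, SLC38 and SLC43 that the count table lists by symbol, which gave 53 of 22190 genes. RNA-seq libraries from 3 fresh and 3 preconditioned samples were compared. In the fresh group the explants came from corneas that had not been frozen. In the preconditioned group the corneas were first held for a week in liquid nitrogen in a cryomedium that contained serum, dimethyl sulfoxide and the inflammatory cytokine IL-1β, and were then thawed. Explants were grown in keratinocyte culture medium. Freezing, cryomedium and IL-1β were applied together, so that their parts cannot be told apart. The strain, age and sex of the rabbits were not given in the sources used here, nor was it stated whether libraries of a group came from separate animals, so that p values measure only the spread between these libraries.

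Cells cannot make the essential amino acids and take them up through carriers in the plasma membrane. Sodium-coupled carriers, such as those of SLC38, SLC6 and the glutamate carriers of SLC1, concentrate amino acids inside the cell. Exchangers, such as SLC1A5 and the heterodimers of SLC3 heavy chains with SLC7 light chains, then trade an internal amino acid for an external amino acid, which brings in leucine, cystine and other amino acids that the first kind of carrier handles poorly. Leucine and arginine activate the growth kinase mTORC1 at the surface of the lysosome through sensors in the cytosol and, for arginine, also in the lysosomal membrane, and a shortage of amino acids raises the translation of the transcription factor ATF4, which induces many of these carriers. The symbol does not fix the substrate. SLC6 also holds carriers of serotonin, taurine and creatine, and SLC43A3 carries nucleobases.

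The libraries had 31952352 to 34327534 counts on genes. KRT5, the keratin of basal epithelium, averaged 9601 CPM in fresh and 9320.4 CPM in preconditioned libraries, where CPM are counts relative to the library's total after scaling by edgeR's TMM factors. TP63, a marker of limbal progenitors, had 246, 226 and 239 CPM in the fresh libraries and 183, 122 and 112 CPM in the preconditioned libraries, without overlap (log2 fold change −0.77, adjusted p = 0.059 with edgeR and 0.0084 with DESeq2). The other epithelial markers differed in direction. KRT3, a marker of differentiation, had 961, 2655 and 409 CPM in the fresh libraries and 801, 239 and 697 CPM in the preconditioned libraries (log2 fold change −1.21, adjusted p = 0.30 with edgeR). CDH1 had a log2 fold change of −0.07. EPCAM and PAX6 had higher mean values in the preconditioned group. EPCAM, an adhesion molecule of epithelial cells, had 91.8, 79.4 and 77.5 CPM against 102, 126 and 125 CPM, without overlap (log2 fold change 0.50, adjusted p = 0.060 with edgeR and 0.022 with DESeq2). PAX6, a transcription factor of the eye, had 218, 201 and 174 CPM against 203, 376 and 459 CPM (log2 fold change 0.81, adjusted p = 0.11 with edgeR and 0.040 with DESeq2). KRT15, another marker of limbal cells, was low, at 3.56 and 4.03 CPM. The summed level of the 7 corneal and limbal epithelial markers found in the table, most of it KRT5, was 9758 to 13488 CPM in the fresh libraries and 9167 to 13502 CPM in the preconditioned libraries. Markers of other cells were also present. The summed level of 8 stromal markers was 470.3 to 1031 CPM in the fresh libraries and 777 to 1621 CPM in the preconditioned libraries. That of 5 immune markers, most of it CD68, was 102 to 134 and 126 to 314 CPM. That of 6 melanocyte markers was 0.406 to 0.534 and 0.578 to 2.70 CPM, barely separated and resting on few counts. TYRP1 among them had 10, 9 and 6 counts in the fresh libraries and 4, 50 and 79 counts in the preconditioned libraries. The summed level of 4 endothelial markers was 2.60 to 2.99 and 1.03 to 13.0 CPM. That of the 3 conjunctival keratins found in the table, almost all of it KRT19, was 1701 to 3904 and 1414 to 3554 CPM. KRT13 averaged 12.6 and 24.6 CPM and KRT4 6.13 and 16.8 CPM in the fresh and preconditioned libraries. No gene of these lists passed the cutoffs used below in edgeR's test. DESeq2 called CD68 (log2 fold change 1.14, adjusted p = 0.0095) and TYRP1 of the melanocyte list (2.61, adjusted p = 0.032) as higher in the preconditioned group. The part of such cells, or of the differences in TP63, EPCAM and PAX6, in the results on transporters was not tested. In bulk RNA, fewer cells of a type and less RNA per cell cannot be told apart.

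Of the 53 transporters, 37 passed edgeR's filter on low counts and were tested. The other 16 had at most 28 counts in any library, and 10 of them had at most 3 counts in every library, which was taken as not detected. Among these were SLC1A2, the main glutamate carrier of glia, and SLC6A2 and SLC6A5, neuronal carriers of noradrenaline and glycine. SLC1A6, a glutamate carrier of Purkinje cells, had the most counts of the 16, with 4, 12 and 28 in the fresh libraries and 4, 3 and 2 in the preconditioned libraries. SLC7A4, SLC6A7, SLC6A13 and SLC6A16 had at most 11, 6, 6 and 4 counts in any library. SLC7A14, a relative of the arginine carriers, had no count in the fresh libraries and 4, 1 and 3 in the preconditioned libraries. Rows without a symbol that are described as amino acid transporters had at most 11 counts in any library and were not among the 53.

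Levels of different genes were compared on the scale of the deposited FPKM values, which divide by the length of the gene. A few carriers made up most of the total. The mean FPKM over the 6 libraries was 349 for SLC6A8, the creatine carrier, 316 for SLC38A2, a sodium-coupled carrier of alanine, serine, glutamine and other small neutral amino acids, 166 for SLC6A14, a carrier of both neutral and cationic amino acids, and 107 for SLC3A2, the heavy chain also called CD98 or 4F2hc. These 4 held 79.4% of the summed FPKM of all 53 genes, and the 12 genes with a mean of at least 10 FPKM held 94.6%. At the other end, 10 tested transporters averaged under 1 FPKM. Among all tested genes, SLC6A8 and SLC38A2 stood at the 98.5th and 98.4th percentile of mean FPKM, SLC38A1 at the 86.8th and SLC7A11 at the 38.4th. In the order of mean FPKM, the ranges of the 6 libraries overlapped for 33 of 36 pairs of neighbours. The ranges did not overlap between SLC38A2 and SLC6A14, between SLC3A2 and SLC38A1, and between SLC38A6 and SLC36A4. SLC6A8 lay above SLC38A2 in 5 of 6 libraries. The rank of SLC7A5, the light chain of the large neutral amino acid exchanger LAT1, rests on a gene length of 544 bases in the deposited FPKM values, the shortest of the 37, where the median was 4038. On the CPM scale, which does not divide by length, SLC7A5 had lower values than SLC1A4, SLC1A5 and SLC7A1 in every library, although its mean FPKM was above theirs. The gene model behind this length is not given in the sources used here. If it holds only a part of the gene, reads from the rest were not counted and the CPM values are too low, so that neither scale settles the rank of SLC7A5.

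**Figure D1:**
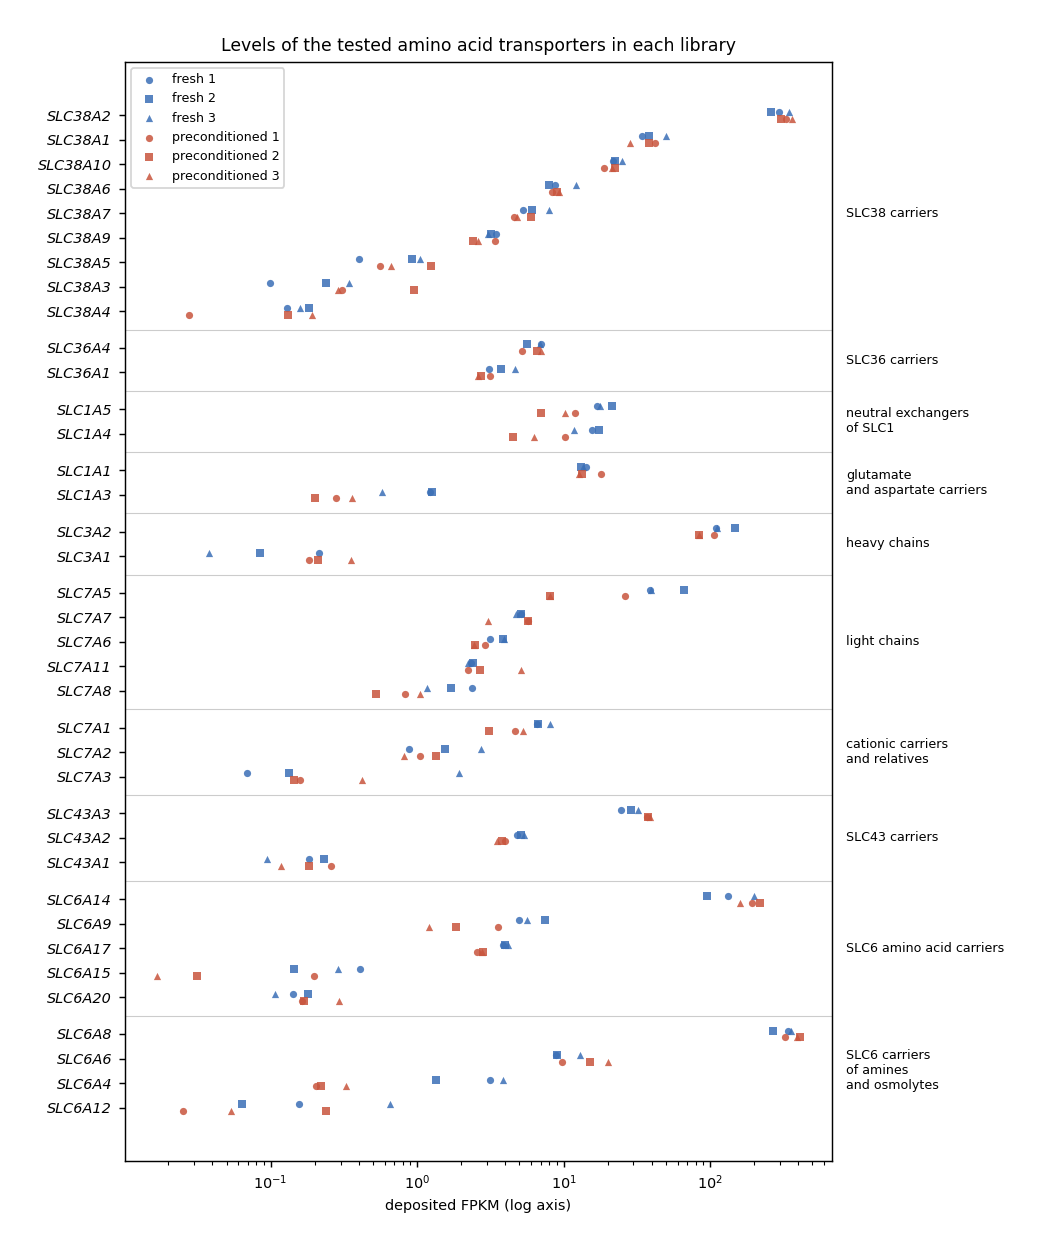
Deposited FPKM (log axis) of the 37 tested transporters in each of the 6 libraries, grouped by role, with fresh libraries in blue and preconditioned libraries in red and a marker shape for each replicate number. Levels range from SLC6A8 and SLC38A2, with means of 349 and 316 FPKM, to 10 transporters with means under 1 FPKM.

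**Figure D2:**
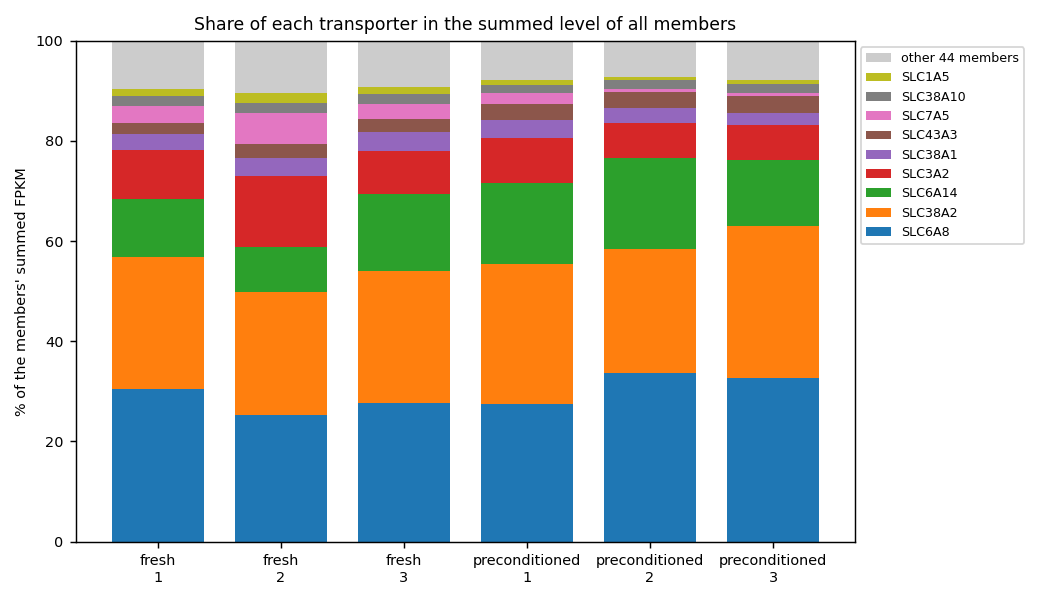
Share of each transporter in the summed FPKM of the 53 genes (vertical axis, percent), with 1 bar for each library and the 9 genes with the highest mean shares in color. SLC6A8, SLC38A2, SLC6A14 and SLC3A2 fill most of every bar, and SLC7A5 takes 3.04% to 6.23% in the fresh libraries and 0.660% to 2.22% in the preconditioned libraries.

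Sums over the carriers of each role were compared between the groups on both scales, FPKM and CPM, since FPKM values carry no TMM scaling and CPM values give no weight to length. Both neutral exchangers of SLC1 together had 29.7 to 39.0 FPKM in the fresh libraries and 11.5 to 22.2 FPKM in the preconditioned libraries, and 89.5 to 121 and 40.4 to 76.2 CPM. The cationic carriers and their relatives had 7.56 to 12.8 FPKM in the fresh libraries and at most 6.60 FPKM in the preconditioned libraries, and 49.7 to 74.6 and 34.2 to 46.3 CPM. The SLC43 carriers had 29.7 to 37.9 and 41.2 to 42.4 FPKM, and 94.0 to 116 and 131 to 138 CPM. The sums of these 3 roles did not overlap between the groups on either scale, with the first and the second lower and the third higher in the preconditioned group. For single genes in CPM, the groups did not overlap for 36.7% of all tested genes, and no such share was taken for sums. The higher SLC43 sum came from SLC43A3, the nucleobase carrier, with means of 71.6 and 106 CPM, while the amino acid carrier SLC43A2 had means of 33.0 and 27.2 CPM.

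For other sums the separation depended on the scale. The light chains had 51.5 to 79.0 and 19.4 to 37.8 FPKM, mostly through SLC7A5, whereas in CPM they overlapped at 67.0 to 84.9 and 57.2 to 68.4. The heavy chains were lower without overlap in FPKM (110 to 149 and 84.3 to 106) and overlapped in CPM (211 to 285 and 180 to 224). The SLC38 carriers overlapped in FPKM (339 to 443 and 384 to 432) and were barely separated in CPM, at 1481 to 1921 and 1926 to 2056. The sum of all 53 genes overlapped in FPKM, at 1058 to 1298 in the fresh libraries and 1181 to 1220 in the preconditioned libraries, and was higher in the preconditioned libraries in CPM, at 3188 to 4136 and 4168 to 4462. The sums of the glutamate and aspartate carriers, of the SLC36 carriers and of both groups of SLC6 carriers overlapped on both scales.

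The preconditioned group was then compared with the fresh group gene by gene, to see which carriers differed in LSCs after cryopreservation with IL-1β. Genes were called at the study's cutoffs, which are an absolute log2 fold change of 1 or more and an adjusted p no higher than 0.05. SLC6A4 was the only called transporter of the 37 (2.70%), against a background of 2.29% of all 15029 tested genes. It was lower in the preconditioned group, as were 1.2% of all tested genes at these cutoffs. The share of called transporters was thus near that of all genes. With no fold cutoff, SLC43A3 joined it, which made 2 of 37 (5.41%) against 5.08% of all tested genes. All 3 preconditioned libraries lay on 1 side of all 3 fresh libraries for 13 of the 37 transporters (35.1%, against 36.7% of all tested genes). Of these, 10 were lower and 3 higher in the preconditioned group, where the background was 18.8% lower and 17.9% higher. A negative log2 fold change was found for 20 of the 37, against 49.5% of all tested genes. The median log2 fold change of the 37 was −0.16, and that of all tested genes was 0.01. For any single gene, an exact permutation test over 3 against 3 libraries cannot give a p under 0.1.

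**Figure D3:**
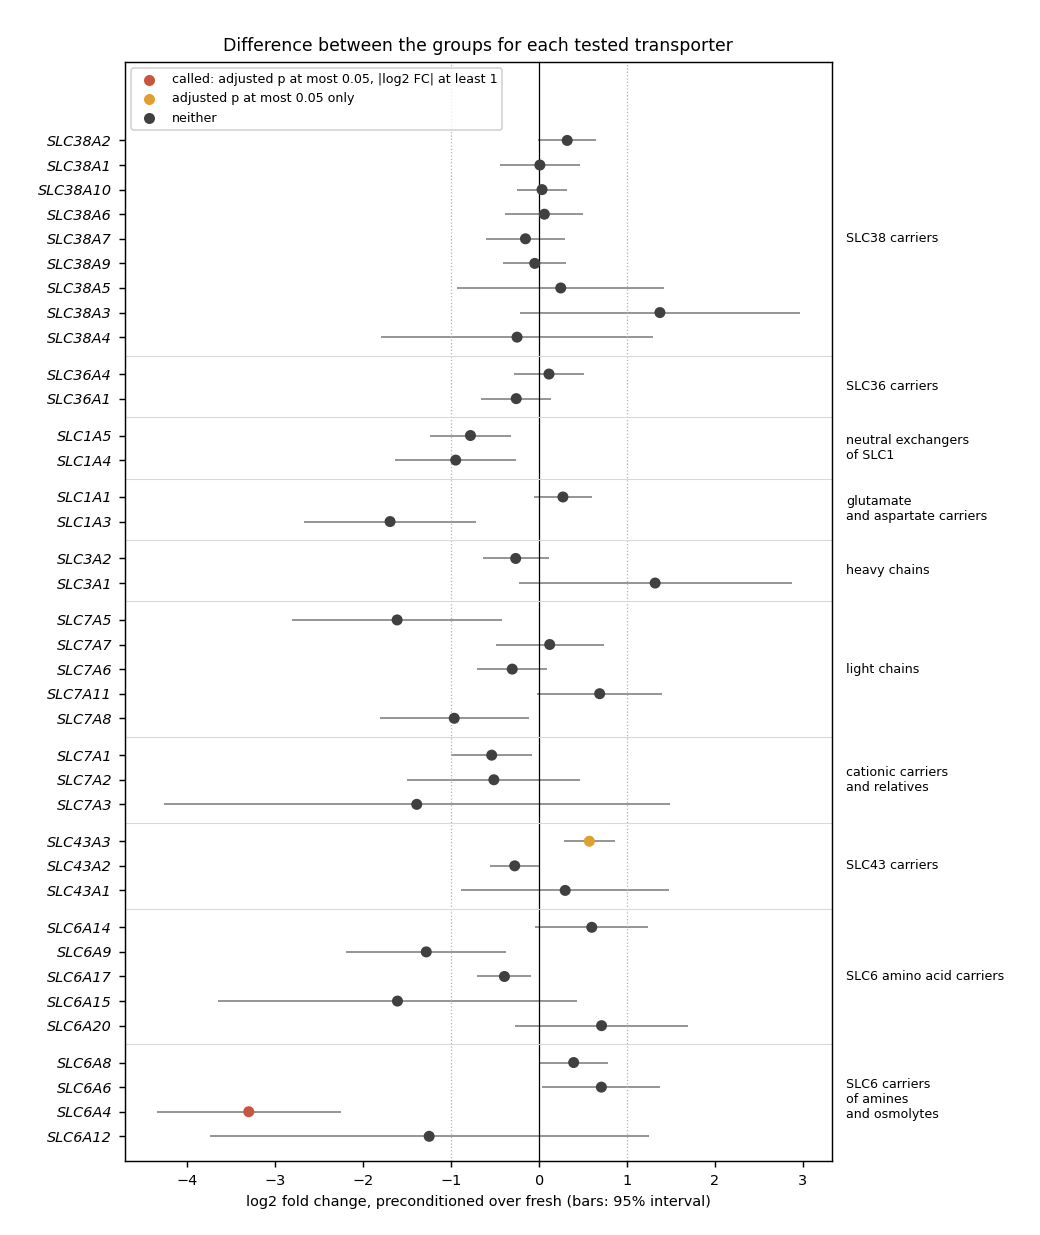
Log2 fold change of the 37 tested transporters, preconditioned over fresh (horizontal axis), with the 95% interval from edgeR's quasi-likelihood fit as bars and genes grouped by role. SLC6A4, at −3.30, is the only gene past both cutoffs, SLC43A3, at 0.57, is past the adjusted p alone, and the intervals of the SLC38 carriers all include 0.

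SLC6A4, the serotonin transporter, fell most. It had 14.6, 6.22 and 17.7 CPM in the fresh libraries and 1.03, 1.18 and 1.68 CPM in the preconditioned libraries. Every preconditioned library was far below the lowest fresh library, and the fresh libraries themselves differed widely. The means were 12.8 ± 5.94 and 1.30 ± 0.338 CPM (SD, n = 3 each), a 9.87-fold lower level. On the log2 scale this was a change of −3.30 ± 0.44 (standard error), with an adjusted p of 0.027 in edgeR's fit. The call was lost with the replicate number as a block (log2 fold change −3.21, adjusted p = 0.063), where 0.2% of all tested genes were called. It was also lost with glmTreat, which tests against the fold cutoff itself, and without fresh replicate 1 (adjusted p = 0.11), fresh replicate 3 (0.064), preconditioned replicate 2 (0.12) or preconditioned replicate 3 (0.060), while the log2 fold change stayed between −3.64 and −3.00 in all fits on counts. With limma it was −2.93 on log2(FPKM + 0.1) and −1.53 on log2(FPKM + 1), scales on which the pseudocount lessens the change of a gene with low values. The other carriers of amines and osmolytes did not pass. SLC6A8 had 571, 444 and 592 CPM in the fresh libraries and 590, 790.4 and 728 CPM in the preconditioned libraries, with a log2 fold change of 0.39 (95% interval 0.01 to 0.78, adjusted p = 0.16). SLC6A6, the taurine carrier, had 49.6, 50.2 and 72.1 CPM against 59.2, 97.2 and 124 CPM, with a log2 fold change of 0.71 (95% interval 0.04 to 1.38, adjusted p = 0.15). For both genes preconditioned replicate 1 lay within the range of the fresh libraries, and the other preconditioned libraries lay above it. SLC6A12, the betaine carrier, was low, with 0.141 to 1.42 CPM in the fresh and 0.0609 to 0.608 CPM in the preconditioned libraries (log2 fold change −1.25, adjusted p = 0.45).

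SLC43A3 was the only transporter with an adjusted p of at most 0.05 in the other direction. It had 62.1, 72.0 and 80.7 CPM in the fresh libraries and 102, 109 and 108 CPM in the preconditioned libraries, a 1.49-fold higher level (log2 fold change 0.57, standard error 0.12, adjusted p = 0.047), which was below the fold cutoff. Its adjusted p was above 0.05 with library size alone (0.079), with limma on log2(FPKM + 1) and log2(FPKM + 0.1) (0.078 and 0.077), with the replicate block (0.10) and without any library other than preconditioned replicate 1 (0.086 to 0.16), and it remained higher in the preconditioned group in all of these. Its relative SLC43A2, which carries leucine and other large neutral amino acids and is known as LAT4, had 31.2, 33.1 and 34.5 CPM against 28.1, 28.3 and 25.1 CPM. The groups of SLC43A2 did not overlap, but the difference was small (log2 fold change −0.28, adjusted p = 0.16). SLC43A1, the carrier known as LAT3, was near the limit of detection, with 0.356 to 0.872 CPM in the fresh and 0.494 to 1.07 CPM in the preconditioned libraries.

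The neutral exchangers of SLC1 had lower values in the preconditioned group without passing edgeR's test. SLC1A5 (ASCT2) is the main exchanger of glutamine in many dividing cells, and SLC1A4 (ASCT1) exchanges alanine, serine, cysteine and threonine. SLC1A5 had 41.1, 51.7 and 42.7 CPM in the fresh libraries and 31.8, 19.6 and 27.4 CPM in the preconditioned libraries. Its log2 fold change was −0.78 (95% interval −1.25 to −0.32, adjusted p = 0.060). The adjusted p was at most 0.05 with library size alone (0.043), no filter on low counts (0.047), limma on log2(FPKM + 1) and log2(FPKM + 0.1) (0.048 and 0.046), DESeq2 (0.010) and without preconditioned replicate 1 (0.016). It was 0.13 with the replicate block and 0.13 to 0.19 without any 1 of the other libraries, and the change was below the fold cutoff in all of these. SLC1A4 had 62.8, 69.5 and 46.8 CPM against 44.3, 20.8 and 27.6 CPM, with a log2 fold change of −0.95 (95% interval −1.63 to −0.26, adjusted p = 0.086). The groups did not overlap for either gene, and preconditioned replicate 1 was the nearest to the fresh libraries in both. Without that library, SLC1A4 passed the cutoffs with a log2 fold change of −1.31 (adjusted p = 0.010).

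The glutamate and aspartate carriers differed from each other. SLC1A1 (EAAC1), which also takes up cysteine, was the more abundant, with 58.4, 53.9 and 54.5 CPM in the fresh libraries and 80.2, 63.0 and 57.9 CPM in the preconditioned libraries. The groups overlapped, with a log2 fold change of 0.27 (95% interval −0.06 to 0.60, adjusted p = 0.24). SLC1A3 (GLAST) had 4.52, 4.64 and 2.11 CPM against 1.13, 0.863 and 1.48 CPM, with a log2 fold change of −1.70 (95% interval −2.68 to −0.71, adjusted p = 0.057). Its groups did not overlap, and it was called by DESeq2 (adjusted p = 0.0022). The difference between the changes of SLC1A1 and SLC1A3 was not tested.

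SLC3A2 binds each of several SLC7 light chains and brings them to the cell surface. It had 211, 285 and 213 CPM in the fresh libraries and 223, 187 and 179 CPM in the preconditioned libraries. The groups overlapped, and the log2 fold change was −0.27 (95% interval −0.64 to 0.11, adjusted p = 0.29). The other heavy chain, SLC3A1 (rBAT), which is known from kidney and intestine, had 0.137 to 0.783 CPM in the fresh and 0.730 to 1.45 CPM in the preconditioned libraries.

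Among the light chains, SLC7A5 differed most. It had 20.2, 33.8 and 20.1 CPM in the fresh libraries and 14.8, 4.80 and 4.61 CPM in the preconditioned libraries. The groups did not overlap, and preconditioned replicate 1 was much nearer to the fresh libraries than the others were. The log2 fold change was −1.62 (95% interval −2.81 to −0.43, adjusted p = 0.090), a 3.06-fold lower level that did not pass. SLC7A5 passed without preconditioned replicate 1 (log2 fold change −2.40, adjusted p = 0.0054) and with DESeq2 (−1.62, adjusted p = 0.0062). SLC7A8 (LAT2), a related exchanger of neutral amino acids, had 9.01, 6.53 and 4.43 CPM against 3.47, 2.33 and 4.41 CPM. Its groups were separated only barely, by fresh replicate 3 and preconditioned replicate 3, and the log2 fold change was −0.97 (adjusted p = 0.13). SLC7A11 (xCT), which exchanges glutamate for the cystine used in glutathione synthesis, had 16.8, 17.0 and 15.8 CPM against 17.4, 22.1 and 40.4 CPM. Preconditioned replicate 3 stood apart above the others, and the log2 fold change of 0.69 had an adjusted p of 0.17. SLC7A6 and SLC7A7, the light chains that exchange cationic for neutral amino acids, had log2 fold changes of −0.31 and 0.12 (adjusted p = 0.26 and 0.79). SLC7A10 had at most 3 counts in each library.

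The level of light chains relative to SLC3A2 was taken in each library. The ratio of SLC7A5 to SLC3A2 in FPKM was 0.357, 0.442 and 0.352 in the fresh libraries and 0.246, 0.0957 and 0.0960 in the preconditioned libraries, with no overlap (exact permutation test, 2-sided, p = 0.1, the smallest that 3 against 3 libraries allow). That of SLC7A11 to SLC3A2 was 0.0214, 0.0160 and 0.0199 against 0.0209, 0.0317 and 0.0607 (exact permutation test, p = 0.2). The summed ratio of SLC7A5, SLC7A6, SLC7A7, SLC7A8, SLC7A10 and SLC7A11 was 0.488 ± 0.0369 in the fresh and 0.274 ± 0.0712 in the preconditioned libraries (SD, n = 3 each, exact permutation test, p = 0.1) in FPKM, with no overlap. In CPM, where SLC7A5 has a smaller weight in the sum, the summed ratio was 0.317 ± 0.0201 and 0.325 ± 0.0508 (SD, n = 3 each, exact permutation test, p = 0.9). The lower summed ratio therefore depends on the scale. For the ratio of SLC7A5 alone to SLC3A2 the lengths cancel in the fold between groups, and this fold does not depend on the scale. The size of the difference in that ratio does.

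The carriers of cationic amino acids were led by SLC7A1 (CAT1), the widespread arginine carrier. SLC7A1 had 43.8, 44.4 and 53.1 CPM in the fresh libraries and 33.9, 23.9 and 39.4 CPM in the preconditioned libraries, without overlap. Its log2 fold change was −0.54 (95% interval −1.001 to −0.08, adjusted p = 0.12). SLC7A2 (CAT2), which is known to be induced in inflammation in several tissues, had 5.56, 9.85 and 17.2 CPM against 7.30, 9.82 and 5.70 CPM, so that the groups overlapped (log2 fold change −0.52, adjusted p = 0.43). SLC7A3 had 0.145 and 0.281 CPM in fresh replicates 1 and 2 and 4.05 CPM in fresh replicate 3, against 0.352 to 0.988 CPM in the preconditioned libraries, so that its mean difference came from 1 library.

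The SLC38 family had no member with an unadjusted p of at most 0.05 among the 9 tested, no member called by edgeR or DESeq2, and 1 member whose groups did not overlap. Over all tested genes these shares were 30.6% at the unadjusted p, 2.29% called by edgeR, 7.78% called by DESeq2 and 36.7% without overlap. The member without overlap was SLC38A2, which had 1241, 1089 and 1431 CPM in the fresh libraries and 1520.3, 1472 and 1698 CPM in the preconditioned libraries. It had the most reads of all 53 genes, and its log2 fold change of 0.32 (95% interval −0.01 to 0.65, adjusted p = 0.17) did not pass. SLC38A1, the next in level and also a carrier of glutamine, had 213, 236 and 308 CPM against 287, 276 and 198 CPM. Its log2 fold change was 0.01 (95% interval −0.45 to 0.47, adjusted p = 0.98), and its sign changed with the scaling. SLC38A9, which senses arginine at the lysosome for mTORC1, had 27.5 to 31.5 CPM in the fresh and 25.1 to 33.7 CPM in the preconditioned libraries (95% interval of the log2 fold change −0.41 to 0.31). SLC38A10 had a 95% interval of −0.25 to 0.32, so that changes as large as the fold cutoff lie outside the intervals of SLC38A1, SLC38A2, SLC38A9 and SLC38A10. SLC38A6 and SLC38A7 overlapped as well, with 16.9 to 25.8 against 19.5 to 22.3 CPM and 27.5, 31.3 and 40.6 against 26.02, 35.6 and 27.7 CPM. Their log2 fold changes were 0.06 and −0.16 (adjusted p = 0.86 and 0.61), and both signs depended on the setting. SLC38A3, SLC38A4 and SLC38A5 were expressed at 0.122 to 3.01 CPM, and their intervals reached beyond the cutoff. The proton-coupled carriers SLC36A1 and SLC36A4 had log2 fold changes of −0.26 and 0.11 (adjusted p = 0.33 and 0.69).

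Among the SLC6 carriers of amino acids, SLC6A14 was the most abundant. It had 538, 389 and 802 CPM in the fresh libraries and 857, 1039.5 and 722 CPM in the preconditioned libraries. Fresh replicate 3 lay within the preconditioned range, and the log2 fold change was 0.60 (95% interval −0.04 to 1.24, adjusted p = 0.19). SLC6A9 (GlyT1), which takes up glycine, had 18.7, 27.8 and 20.8 CPM against 14.6, 7.99 and 4.97 CPM. The groups did not overlap, and the log2 fold change of −1.28 (95% interval −2.20 to −0.37) had an adjusted p of 0.084. SLC6A9 passed without preconditioned replicate 1 (−1.80, adjusted p = 0.0092) and with DESeq2 (−1.29, adjusted p = 0.0094). SLC6A17, a vesicular carrier of neutral amino acids known from neurons, had 23.1, 23.8 and 24.8 CPM against 16.6, 19.4 and 18.5 CPM, a small and even difference (log2 fold change −0.40, adjusted p = 0.099). SLC6A15 (B0AT2), a carrier of branched-chain amino acids and proline, was low, with 1.45, 0.506 and 1.01 CPM against 0.761, 0.128 and 0.0659 CPM (log2 fold change −1.61, adjusted p = 0.25). SLC6A20, a carrier of proline and other imino acids, was also low, with 0.629 to 1.07 CPM against 1.07 to 1.94 CPM (log2 fold change 0.71, adjusted p = 0.29).

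**Figure D4:**
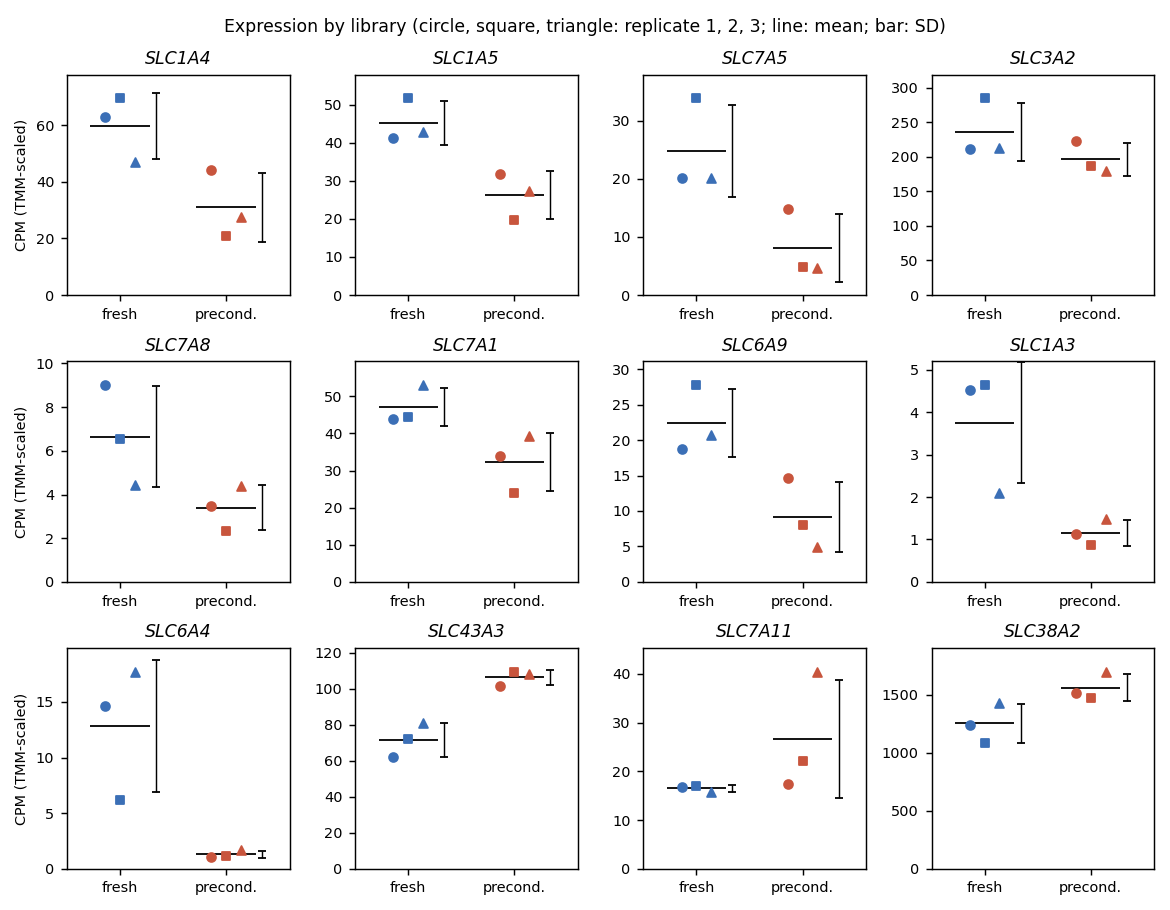
TMM-scaled CPM (vertical axes from 0) of 12 transporters in the 3 fresh (blue) and 3 preconditioned (red) libraries, with the mean as a line and the SD as a bar. SLC6A4 is separated widely, SLC43A3 lies higher in all preconditioned libraries, and for SLC1A4, SLC1A5, SLC7A5 and SLC6A9 preconditioned replicate 1 lies highest in its group.

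The number of calls was highest without preconditioned replicate 1, over all genes as well as among the transporters. Without it, 6 of 38 tested transporters were called (15.8%, against 9.99% of all tested genes), all of them lower, namely SLC1A3, SLC1A4, SLC6A4, SLC6A9, SLC6A15 and SLC7A5. Its position was not particular to transporters. Of the 20 transporters with a negative log2 fold change, 9 were highest in this library within its group (45.0%), against 57.1% of all genes with a negative log2 fold change. Leaving out any other library gave 0 or 1 called transporter, but also few calls over all tested genes. Without fresh replicates 1, 2 and 3 these were 0.123%, 0.0908% and 0.306%, and without preconditioned replicates 2 and 3 they were 0.104% and 0.468%. With DESeq2, 4 of 36 transporters were called (11.1%, against 7.78% of all genes with an adjusted p). All 4 were lower, against 4.17% of all genes, and all were among the 6.

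Genes that sense, replace or use the imported amino acids were counted in 4 lists. In the list of 28 tested genes of the response to amino acid deprivation, none was called by edgeR, where 2.29% of all tested genes were. An unadjusted p of at most 0.05 was found for 10 (35.7%, against 30.6% of all tested genes). A negative log2 fold change was found for 23 (82.1%, against 49.5%). The groups did not overlap for 10 (35.7%, against 36.7%), all of them lower in the preconditioned group, where the background was 18.8% lower. The median log2 fold change of the list was −0.61, the lowest of the 4. At an adjusted p of at most 0.05 with no fold cutoff, DDIT4, an inhibitor of mTORC1 signalling, was lower (log2 fold change −0.88, adjusted p = 0.039), as was EIF2AK1, the heme-regulated eIF2α kinase (−0.57, adjusted p = 0.048). With the replicate block their adjusted p values were 0.078 and 0.12. ASNS, which makes asparagine and is a target of ATF4, had 73.6, 90.7 and 40.8 CPM in the fresh libraries and 44.4, 19.3 and 23.7 CPM in the preconditioned libraries (log2 fold change −1.23, adjusted p = 0.096). ATF4 itself overlapped, with 79.3, 106 and 111 CPM against 127, 53.5 and 53.9 CPM, and preconditioned replicate 1 was the highest of all 6 libraries. Without that library 9 of the 28 genes were called (32.1%, against 9.99% of all tested genes), all of them lower. DESeq2 called 4 (14.3%, against 7.78% of all genes in either direction and 4.17% lower), namely ASNS, ATF5, CBS and STC2, all of them lower.

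In the list of amino acid sensing upstream of mTORC1, 1 of 30 tested genes was called (3.33%, near the 2.29% of all tested genes). RRAGD, a subunit of the Rag GTPases that bring mTORC1 to the lysosome, rose from 11.7, 11.5 and 16.5 CPM in the fresh libraries to 23.9, 45.5 and 31.4 CPM in the preconditioned libraries (log2 fold change 1.34, standard error 0.27, adjusted p = 0.043). The call was lost with the replicate block, with glmTreat, with limma on log2(FPKM + 1) and without any library other than preconditioned replicate 1. With limma on log2(FPKM + 1), DDIT4 was the only called gene of the 4 lists. LAMTOR5, a subunit of the Ragulator complex that anchors the Rag GTPases, was higher by 0.73 on the log2 scale (adjusted p = 0.031, and 0.088 with the replicate block), below the fold cutoff. The other subunits, LAMTOR1, LAMTOR2, LAMTOR3 and LAMTOR4, had log2 fold changes of 0.43 to 0.61 with adjusted p values of 0.051 to 0.081, and the groups did not overlap for any of the 5. The LAMTOR genes were chosen after their values were seen. In the whole list 13 of the 30 genes had a negative log2 fold change (43.3%, against 49.5% of all tested genes), and the groups did not overlap for 15 (50.0%, against 36.7%), with 9 above and 6 below the fresh libraries. The 6 lower genes were RRAGA and RRAGB, 2 further Rag GTPases, DEPDC5 and NPRL3 of the GATOR1 complex, which inhibits them, and MIOS and WDR59 of the GATOR2 complex, which opposes GATOR1. Their log2 fold changes were −0.39 to −0.15, with adjusted p values of 0.089 to 0.57. None of the 31 tested enzymes that use imported amino acids was called by edgeR. At an unadjusted p of at most 0.05 there were 6 higher and 5 lower, where the background was 2329 higher and 2267 lower of 15029 tested genes. In the sensing list 10 were higher and 1 lower, and in the deprivation list 0 were higher and 10 lower. Of the enzymes, DESeq2 called only GAMT, an enzyme of creatine synthesis, as higher (3.23%, against 7.78% of all genes with an adjusted p). With edgeR, GAMT had a log2 fold change of 1.13 and an adjusted p of 0.089. None of the 18 tested amino acid carriers of other SLC families and their partners was called by edgeR, and 1 was higher and 5 lower at an unadjusted p of at most 0.05. The groups did not overlap for 10 (55.6%, against 36.7% of all tested genes), with 1 higher and 9 lower (background 17.9% and 18.8%). A negative log2 fold change was found for 12 (66.7%, against 49.5%). DESeq2 called only SLC17A7, a vesicular glutamate carrier, as higher (5.56%, against 7.78% of all genes with an adjusted p). SLC17A7 was at 0.227 ± 0.185 and 1.79 ± 1.35 CPM (SD, n = 3 each). Over the 4 lists, 38 of 106 tested genes had an unadjusted p of at most 0.05 in edgeR's quasi-likelihood test, where the background was 30.6% of all tested genes.

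**Figure D5:**
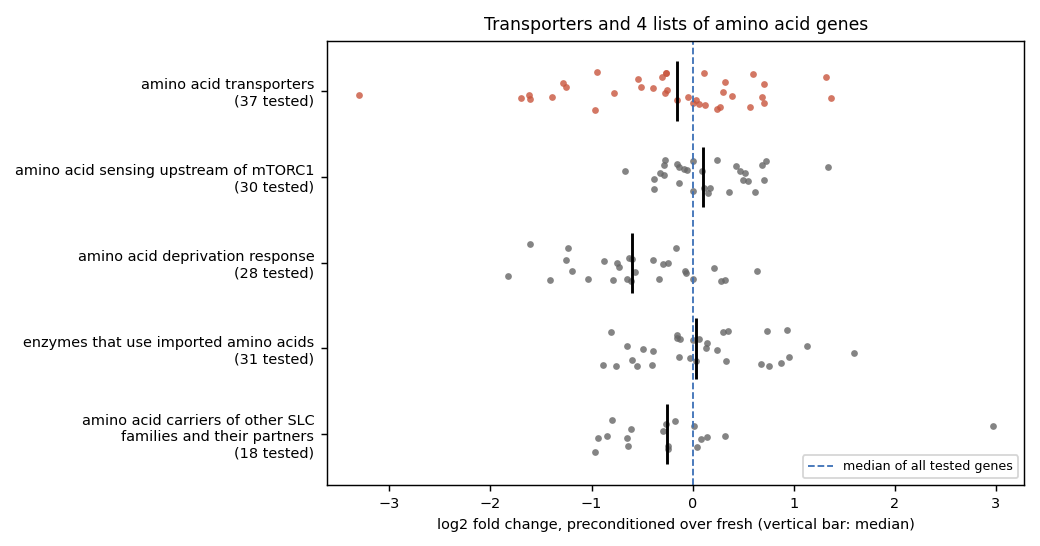
Log2 fold changes, preconditioned over fresh (horizontal axis), of the tested transporters (red) and of the tested genes of 4 lists (gray), with the median of each as a vertical bar and the median of all tested genes as a dashed line; heights within a row are random. The medians are −0.16 for the transporters and −0.61 for the genes of the deprivation response.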

How the data were processed

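RNA-seq was analysed in 3 fresh and 3 preconditioned libraries of rabbit LSCs, grouped by the sample titles. The authors used hisat2 for alignment and htseq-count for counting, and the counts per gene were deposited raw. The authors also deposited FPKM values, which equal the count over the library's total and over 1 length per gene. The genome build, the annotation and the strand setting are not given in the sources used here, so that overlapping genes on opposite strands may share reads. RNA was extracted with TRIzol per the labels and with an Omega kit per the methods.

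The main test was that of edgeR 4.0.16 in R 4.3.3 (filterByExpr, TMM, robust quasi-likelihood test, condition as the only factor), which tested 15029 of 22190 genes. The Benjamini-Hochberg adjustment was made over all tested genes. Standard errors and 95% intervals were derived from the F statistic. Values are CPM with TMM-scaled library sizes, and FPKM was used to compare levels between genes, for ratios and, beside CPM, for sums over genes. Alternatives used DESeq2 1.42.0, limma 3.58.1 on log2(FPKM + 1) and log2(FPKM + 0.1), other scalings and filters, the replicate block and leaving out each library.

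The transporters, the gene lists and the markers were chosen with earlier results of these data known. Named transporters were all those with an adjusted p of at most 0.05, the 12 with the highest mean FPKM, the largest absolute log2 fold change in each family, and a fixed panel. SLC6A12, SLC6A17, SLC6A20, SLC7A3, SLC38A5, SLC38A6, SLC38A7 and genes named for low counts were added after their values were seen, as were the LAMTOR genes and the genes called under alternatives. Of the 124 genes in the 4 lists, 115 were in the table by symbol. The values of some transporters with few counts are not reported here. The intervals cover the spread between libraries, and with at least 31952352 counts per library, depth limited only genes with few counts.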

Additional observations from a re-analysis of the deposited data

How the results depend on the processing

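With 3 libraries a group, the spread between libraries limits these results, and depth limits transporters under about 1 CPM. The number of called transporters was 1, and it was lower in the preconditioned group. It was 2 (both lower) with library size alone and with limma on log2(FPKM + 0.1) (5.41% each, against 3.76% and 3.93% of all tested genes). It was 4 (all lower) with DESeq2 (11.1%, against 7.78%) and 2 (1 of them higher) with no fold change cutoff (5.41%, against 5.08%). It was 0 with glmTreat and with the replicate block, where 0.16% and 0.2% of all tested genes were called. Leaving out each library gave 0 to 6, where 0.0908% to 9.99% of all tested genes were called. The other settings left it at 1. For the genes of the 4 lists the number was 1 (0.943%, against 2.29% of all tested genes). It became 4 with library size alone and with no fold cutoff, 7 with DESeq2 and 2 with limma on log2(FPKM + 0.1). It was 0 with glmTreat and the replicate block, and 0 to 16 when each library was left out. The shares of all tested genes at these settings are those given above. With limma on log2(FPKM + 1), where 1.88% of all tested genes were called, the number was 1 too, but with DDIT4 in place of RRAGD. The sample titles number the libraries but state no pairing. Same-numbered libraries had correlations of their deviations from the group means of −0.067, −0.077 and −0.12 across genes. With 3 libraries a group, these values cannot show whether same-numbered libraries shared an animal or a batch. The block result therefore only shows the effect of that term. Library size alone moved the median of the log2 fold changes over all tested genes from 0.01 to −0.16, and with it the sign of 5 of the 37 transporters. SLC38A1 then had −0.16, SLC38A10 −0.14, SLC38A6 −0.11, SLC36A4 −0.0603 and SLC7A7 −0.0521. With limma on log2(FPKM + 1) these were −0.16, −0.13, −0.0824, −0.0544 and −0.0813, and on log2(FPKM + 0.1) −0.16, −0.14, −0.0886, −0.0625 and −0.11. Signs also changed when a library was left out for SLC38A1 (−0.10 to 0.17), SLC38A10 (−0.0462 to 0.11), SLC7A7 (−0.0443 to 0.37), SLC38A9 (−0.21 to 0.0316) and SLC38A4 (−0.78 to 0.21), and also for SLC6A12, SLC7A3, SLC38A5, SLC38A6 and SLC38A7. The other 26 of the 37 kept their direction in every setting that gave them a value. The minimum of 1 CPM in 3 libraries gave a value for 30 of the 37. The difference in the summed ratio of light chains to SLC3A2 was −0.215 in FPKM. It was 0.00799 with CPM in place of FPKM. For single light chains in FPKM it was −0.238 for SLC7A5, −0.00565 for SLC7A8, −0.0011 for SLC7A6, −0.000266 for SLC7A10, 0.0114 for SLC7A7 and 0.0187 for SLC7A11.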
